A study of Mus musculus with 3 samples.

Results

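The 6 genes described here encode transcription factors that drive the epithelial-mesenchymal transition (EMT): Zeb1, Zeb2, Snai1, Snai2, Prrx1 and Prrx2. DNA methylation was read over each gene and 5 kb on either side. All 200-bp bins that touched these regions were taken, 2469 bins of 12313737 in all: 972 for Zeb1, 721 for Zeb2, 75 for Snai1, 68 for Snai2, 401 for Prrx1 and 232 for Prrx2. The choice of bins used positions and no measured value.

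The study grew organoids, small epithelial cultures in gel, from the first part of the proximal colon of male mice about 40 days old, and pulled down methylated DNA with a methyl-CpG-binding domain protein before sequencing (MBD-seq). Organoids of every group carried 1 heterozygous Braf allele that turns into the oncogenic V600E form once Cre recombinase has acted. The first group (Braf Base medium) had received Cre by lentivirus and was selected in Base medium, a medium without the factors of the stem-cell niche. The second (Braf full medium) had received Cre and stayed in full medium with Wnt3a, R-spondin, Noggin and EGF. The control (EV) had received the empty lentiviral backbone and stayed in full medium, so its Braf allele was not switched on by Cre. After 5 months in culture, each was grown for a further 3 weeks. Every group is 1 library of cultured epithelium, and the labels do not give the number of clones or animals behind it. No difference below therefore has a replicate check, no p-value is given, and each comparison is between libraries, not conditions.

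EMT factors bind short DNA motifs called E-boxes or homeodomain sites, silence epithelial genes such as E-cadherin, and let cells leave the epithelial sheet. In the gut wall they are mainly genes of mesenchymal and neural crest-derived cells, and epithelial cells keep them low, in part through microRNAs of the miR-200 family that target Zeb1 and Zeb2. Methylation of CpG-rich DNA at a gene start usually goes with a silent promoter, whereas methylation inside gene bodies is common in active genes too. RNA was not measured in these libraries, so the levels of these genes and of markers of the organoid cells were not analysed here.

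The deposited log2 values were turned back into whole read overlaps per bin, and coverage is overlaps times the worth of 1 overlap in that library, averaged over the bins of a window. The libraries held 14850571 overlaps in Braf Base medium, 20914446 in Braf full medium and 12530155 in EV. They differed in background: 83.0%, 43.3% and 87.2% of all bins were empty in the same order, and the median window around a gene end had a coverage of 0.00674, 0.0579 and 0.00913. Low values were thus generally higher in the Braf full medium library, which bears on each of its comparisons below. A window was called gained or lost where its log2 ratio, computed after adding the mean coverage per bin of 0.0597 to both values, reached 1 or -1 and the higher library had at least 0.119, which is 2 times that mean. Intervals in parentheses after a fold are 95% exact binomial intervals on estimated reads and cover counting error only. In these bulk libraries, more methylated cells and more methylation per cell cannot be told apart.

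The starts of these genes differ in sequence. RefSeq promoters of build GRCm38.p6 (the assembly of mm10), 250 bases before to 50 after an annotated start, were found for 4 of the 6 genes, with 3 distinct start regions for Zeb2. The 4 below belong to the starts on which the results turn. CpG dinucleotides, the bases that the assay reads when methylated, are in capitals, and each runs 5′ to 3′ on the strand of the gene: minus for both Zeb2 starts, plus for Snai1 and Prrx2.
Zeb2, first start, chr2:45117393-45117692: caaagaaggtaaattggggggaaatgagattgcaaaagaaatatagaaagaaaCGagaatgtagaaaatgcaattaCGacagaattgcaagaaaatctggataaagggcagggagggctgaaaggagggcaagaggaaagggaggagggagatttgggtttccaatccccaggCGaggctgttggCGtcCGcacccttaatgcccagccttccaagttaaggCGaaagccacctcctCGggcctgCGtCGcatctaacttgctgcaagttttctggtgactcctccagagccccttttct
Zeb2, inner start, chr2:45110228-45110527: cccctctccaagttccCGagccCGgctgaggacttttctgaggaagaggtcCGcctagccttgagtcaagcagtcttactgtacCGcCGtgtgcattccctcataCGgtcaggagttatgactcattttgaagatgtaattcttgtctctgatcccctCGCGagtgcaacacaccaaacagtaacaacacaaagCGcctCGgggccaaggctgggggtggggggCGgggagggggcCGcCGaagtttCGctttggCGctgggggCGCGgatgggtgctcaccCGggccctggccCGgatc
Snai1, chr2:167537945-167538244: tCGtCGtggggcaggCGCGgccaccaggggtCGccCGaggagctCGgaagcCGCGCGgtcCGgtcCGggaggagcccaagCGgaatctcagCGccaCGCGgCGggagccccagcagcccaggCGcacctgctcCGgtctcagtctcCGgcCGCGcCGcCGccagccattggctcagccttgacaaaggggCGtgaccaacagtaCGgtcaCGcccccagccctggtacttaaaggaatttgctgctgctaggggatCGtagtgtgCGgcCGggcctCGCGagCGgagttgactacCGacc
Prrx2, chr2:30845117-30845416: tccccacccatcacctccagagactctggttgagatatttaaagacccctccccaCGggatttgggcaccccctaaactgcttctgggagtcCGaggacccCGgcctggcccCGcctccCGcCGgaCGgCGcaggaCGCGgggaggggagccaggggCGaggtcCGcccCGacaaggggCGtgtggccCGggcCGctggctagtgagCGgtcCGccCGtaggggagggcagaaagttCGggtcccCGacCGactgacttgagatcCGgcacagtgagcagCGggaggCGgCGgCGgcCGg

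Snai1 has 34 CpGs in these 300 bases, Prrx2 has 28, the inner Zeb2 start has 19 and the first Zeb2 start has 9. Prrx1 (chr1:163313601-163313900, not shown) has 6. Over 20085 promoters of protein-coding genes the median was 14. By a usual definition of a CpG-rich stretch (observed over expected CpG of at least 0.6 and at least 50% G and C), Snai1, Prrx2 and the inner Zeb2 start are CpG-rich and the first Zeb2 start and Prrx1 are not; 46.5% of all promoters are. The E-box CAGGTG, the motif that Snail and Zeb proteins bind, was searched on both strands and lies once in the Snai1 promoter and in none of the others, and 20.0% of all promoters hold it.

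Zeb2 held the site with the largest log2 ratio of the 6 genes in both Braf libraries over EV. Zeb2 (chr2:44983512-45117442, minus strand) encodes a zinc-finger homeobox repressor that neural crest cells of the gut need. Its region averaged a coverage of 0.0432 in Braf Base medium, 0.0614 in Braf full medium and 0.0127 in EV. That is 3.39-fold (2.62 to 4.40) in Braf Base medium over EV and 4.82-fold (3.73 to 6.25) in Braf full medium over EV. Both ratios share the EV library. The sum over the region mixes a raised background with covered sites: outside the sites described next, Zeb2 had 0.0106 in Braf Base medium, 0.0405 in Braf full medium and 0.00516 in EV.

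The highest tiles of the regions lay in short sites, but Snai2 had none. A site is a run of adjacent 1-kb tiles that each had at least 0.298, or 5 times the mean per bin, in at least 1 library. There were 13 sites made of 18 tiles, out of 498 tiles. Their share of a region's overlaps differed between genes. The site at the Snai1 start held 91.9% in Braf Base medium, 77.5% in Braf full medium and 83.3% in EV. The Prrx1 site held 16.2%, 10.0% and 6.67% in the same order. Because a site had to be high in at least 1 library, a site that 1 library alone passed had to be lower in the others, and no count of changed sites is read as a result.

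**Figure D1:**
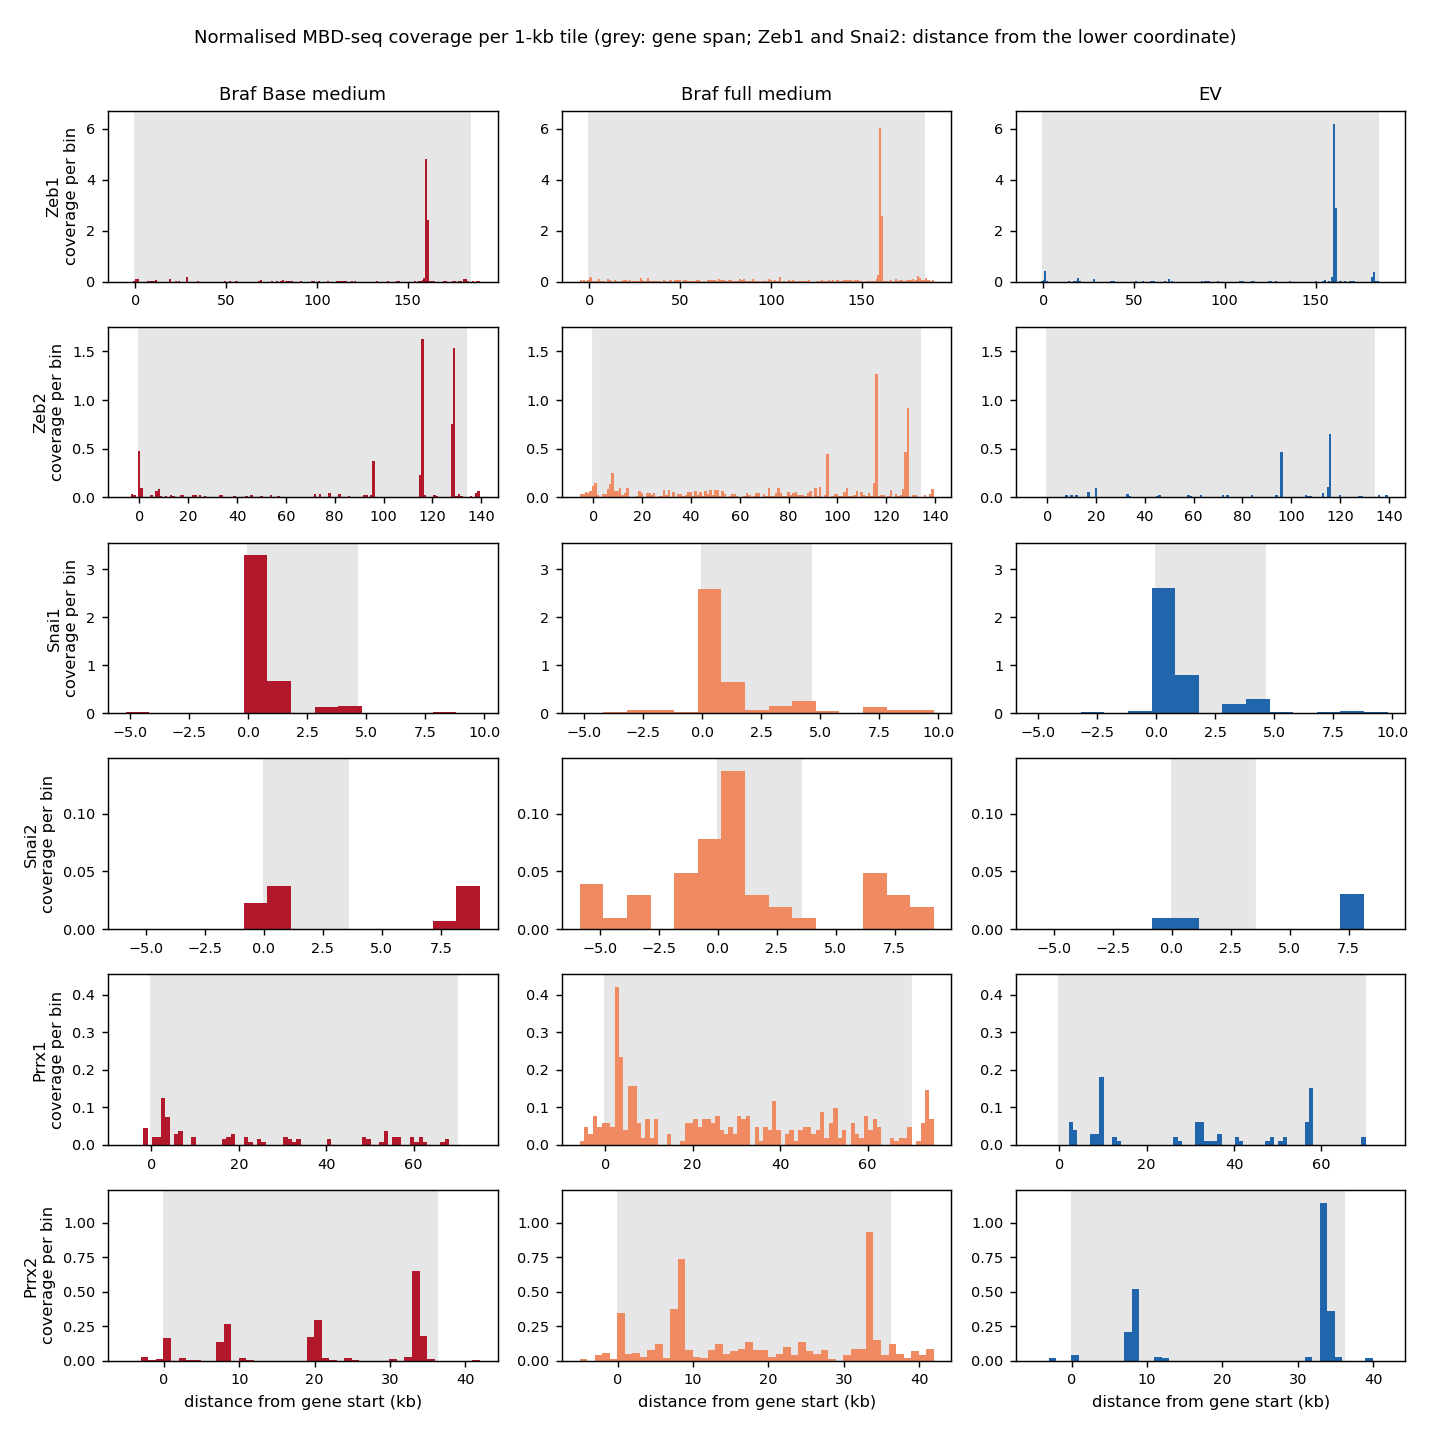
Normalised MBD-seq coverage per bin, averaged over 1-kb tiles (vertical axis), by distance in kb from the gene start (horizontal axis; from the lower coordinate for Zeb1 and Snai2, whose strand the reference used does not give). Rows are the 6 genes, columns are the libraries Braf Base medium, Braf full medium and EV, each row has 1 scale, and grey marks the gene. The highest tiles lie in a few narrow sites, with none in Snai2. The Zeb2 site at 128.5 kb is present in both Braf libraries and near 0 in EV, and the Braf full medium column has a raised floor.

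The widest gap was at a site deep inside Zeb2, 128.5 kb past the first start and 5.4 kb from the other end of the gene (chr2:44988001-44990000). It had a coverage of 1.14 in Braf Base medium (309 overlaps), 0.696 in Braf full medium (142 overlaps) and 0.0100 in EV (2 overlaps). The ratio was 114-fold (16.2 to 3667) in Braf Base medium over EV, a log2 ratio of 4.11, and 69.3-fold (9.67 to 2250) in Braf full medium over EV, a log2 ratio of 3.44. The width of these intervals comes from the 2 EV overlaps, about 1 read. Both calls held in every setting tried, with log2 ratios of 2.48 to 5.54 for Braf Base medium and 1.91 to 4.83 for Braf full medium. Braf Base medium had 1.65-fold (1.20 to 2.28) the coverage of Braf full medium there, which was not called as the libraries were deposited. With equal totals this comparison was called gained (log2 1.49).

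The start of Zeb2 also carried methylated DNA in the Braf libraries and none in EV. The window 1 kb to each side of the first start had a coverage of 0.246 in Braf Base medium (73 overlaps), 0.134 in Braf full medium (30 overlaps) and 0 in EV (0 overlaps). Taken against 3 reads in EV, coverage was at least 7.23-fold higher in Braf Base medium, with a log2 ratio of 2.36, and at least 3.93-fold higher in Braf full medium, with a log2 ratio of 1.70. Both windows were called gained. The call in Braf full medium was not made with a larger added constant (log2 0.64), nor, since its coverage fell under the minimum, with equal library totals (1.25), with each library's median window subtracted (1.18) or with a wider window (1.31).

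The signal at the first start was narrow in Braf Base medium. The 1-kb tile over it (chr2:45117001-45118000) had 0.474 in Braf Base medium (64 overlaps), 0.118 in Braf full medium (12 overlaps) and 0 in EV. The tile passed the site minimum through Braf Base medium alone. Braf Base medium was at least 6.34-fold above EV and 4.03-fold (1.52 to 13.5) above Braf full medium, and both calls held in every setting tried. In the 3 bins over the first Zeb2 sequence printed above, with its 9 CpGs, coverage was 0.469 in Braf Base medium, 0.114 in Braf full medium and 0 in EV. The window around the CpG-rich inner start had another order, with 0.0674 in Braf Base medium, 0.183 in Braf full medium and 0.00913 in EV. Braf full medium was 20.0-fold (2.53 to 675) over EV and called gained. The EV value rests on 2 overlaps, and calls under the alternative settings are not given for this window. Braf Base medium was 7.38-fold (0.790 to 262) over EV and not called. In the bins over the inner promoter printed above, coverage was 0.0741 in Braf Base medium (4 overlaps), 0.0735 in Braf full medium (3 overlaps) and 0 in EV. The gap between the Braf libraries thus lay outside that promoter. Of all annotated start windows, 6.80% were called gained in Braf full medium over EV and 5.56% in Braf Base medium over EV. The middle pair of starts, which lie within the lncRNA gene Zeb2os, had 0.0101 in Braf Base medium, 0.0312 in Braf full medium and 0 in EV and was not called.

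Zeb2 had further sites that all 3 libraries shared. At chr2:45001001-45002000, 115.7 kb past the first start, coverage was 1.62 in Braf Base medium (219 overlaps), 1.26 in Braf full medium (129) and 0.653 in EV (65). Braf Base medium over EV was 2.49-fold (1.59 to 4.03) and called gained in every setting, and Braf full medium over EV was 1.94-fold (1.19 to 3.23) and not called. Braf Base medium over Braf full medium was not called as deposited, and was called gained with equal totals (log2 1.20). At chr2:45021001-45022000 the values were 0.370, 0.441 and 0.462 in the same order, with no call; the microRNA gene Mir5129 lies near this tile but not in it. The window at the other end of Zeb2 had 0 overlaps in all 3 libraries.

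**Figure D2:**
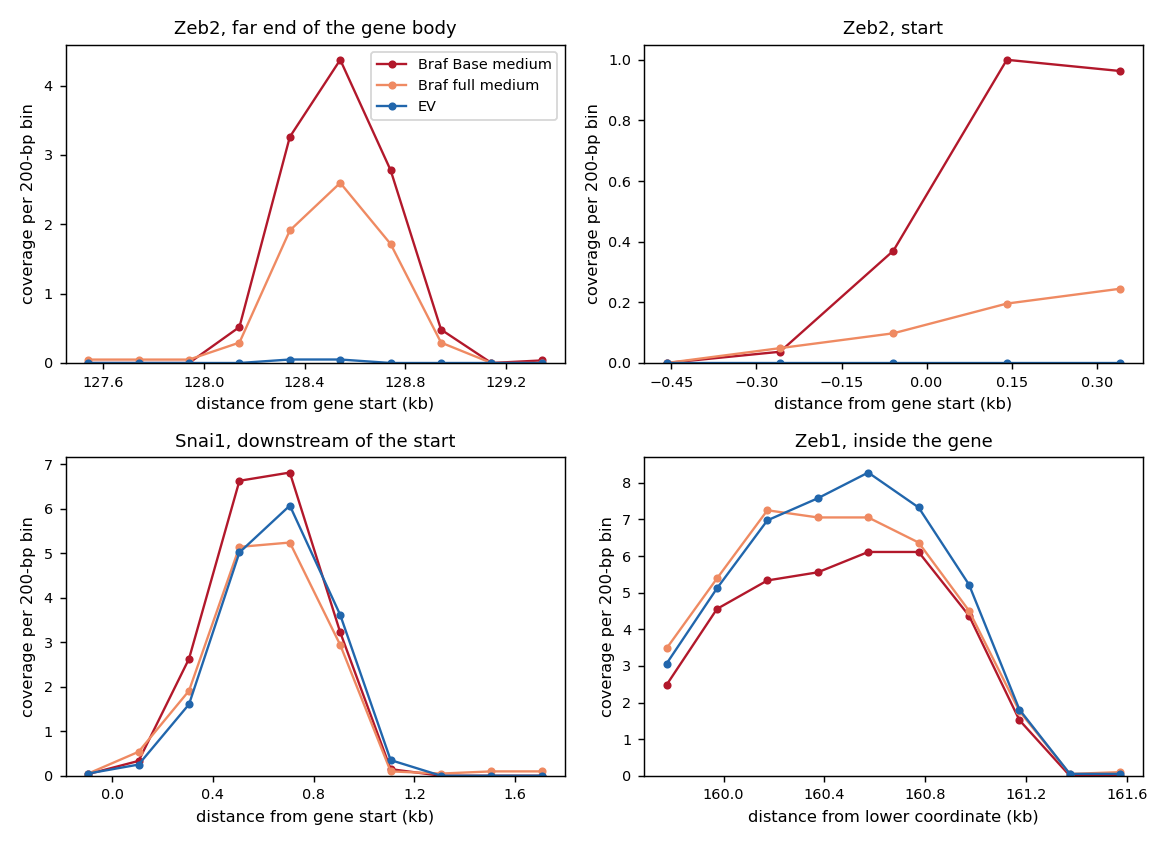
Coverage per 200-bp bin (vertical axis, from 0) by distance in kb from the gene start, or from the lower coordinate for Zeb1 (horizontal axis), at 4 sites, with 1 line per library and 1 point per bin. At both Zeb2 sites EV is at or near 0 while Braf Base medium is above Braf full medium; at Snai1 and inside Zeb1 the 3 libraries run close together.

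Zeb1, the paralog of Zeb2 and the other zinc-finger homeobox repressor of E-cadherin, had no site called gained in either Braf library. A pair of its sites passed the site minimum through EV alone and so could not be called gained. Of its 195 tiles, 3 were called gained and 2 lost in Braf full medium over EV, against 2.82% and 0.354% of all tiles. None of the 3 gained tiles lay in a site. Zeb1 spans chr18:5591327-5775468, and the lncRNA Gm10125 overlaps its lower end. Its region averaged 0.0471 in Braf Base medium, 0.0871 in Braf full medium and 0.0597 in EV. Most of that lay in 1 site inside the gene (chr18:5751001-5753000, 160.6 kb from the lower end): it held 78.8% of the region's overlaps in Braf Base medium, 50.8% in Braf full medium and 78.3% in EV.

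At that Zeb1 site, coverage was 3.60 in Braf Base medium (973 overlaps), 4.30 in Braf full medium (878 overlaps) and 4.55 in EV (906 overlaps), the highest of all 13 sites in every library. Braf Base medium over EV was 0.793-fold (0.684 to 0.915) and Braf full medium over EV was 0.946-fold (0.815 to 1.10), with no call. Zeb1 also had a pair of smaller sites that passed the site minimum through EV alone, so that EV is highest there, and part of the calls against it, is given by the choice of sites. Just inside the lower end (chr18:5592001-5593000), coverage was 0.104 in Braf Base medium, 0.196 in Braf full medium and 0.402 in EV; near the upper end (chr18:5773001-5774000), it was 0.0889, 0.157 and 0.392 in the same order. Braf Base medium was called lost against EV at both, at 0.258-fold (0.0886 to 0.743) and 0.227-fold (0.0660 to 0.658). Braf full medium was called lost against EV at the upper one, at 0.400-fold (0.145 to 1.07), with an interval that includes 1. With a larger added constant none of these 3 calls was made, and with equal totals Braf full medium was called lost at the lower one as well (log2 -1.36).

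The windows at the ends of Zeb1 were not called in any comparison. The lower end had 0.0876 in Braf Base medium, 0.151 in Braf full medium and 0.0684 in EV. The upper end had 0, 0.0980 and 0.00913 in the same order. Which end is the start was not given in the reference used.

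Snai1 had the highest mean coverage of the 6 regions in every library, and its start window was not called in any comparison as the libraries were deposited. Snai1 (chr2:167538195-167542814, plus strand) encodes Snail, a zinc-finger repressor of E-cadherin. Its region averaged 0.287 in Braf Base medium, 0.278 in Braf full medium and 0.272 in EV, above 93.6%, 92.5% and 93.9% of all protein-coding gene regions. Braf Base medium over EV was 1.06-fold (0.866 to 1.31) and Braf full medium over EV was 1.02-fold (0.824 to 1.28). These intervals leave out a change of 2-fold in either direction, as far as counting error goes.

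The window at the Snai1 start had 1.79 in Braf Base medium (532 overlaps), 1.45 in Braf full medium (325 overlaps) and 1.53 in EV (335 overlaps). It stood above 98.7%, 98.7% and 99.0% of all gene end windows in the same order. The log2 ratio was 0.22 for Braf Base medium over EV, -0.08 for Braf full medium over EV and 0.30 for Braf Base medium over Braf full medium, with no call. For Braf Base medium over Braf full medium it was 1.15 with equal totals, which is a gain, and -0.23 with local background divided out. The signal sat past the start rather than on it: the 3 bins over the Snai1 promoter printed above, with 34 CpGs, had 0.136 in Braf Base medium, 0.196 in Braf full medium and 0.117 in EV, while the bins just inside the gene carried the peak. Within 2 Mb of Snai1, quiet tiles had 0.0114 in Braf Base medium, 0.0524 in Braf full medium and 0.0106 in EV, against 0.00603, 0.0400 and 0.00567 over the genome in the same order; the part of local copy number in these values was not tested. The site at the far end of Snai1 (chr2:167542001-167543000) had 0.156, 0.255 and 0.301 in the same order, with no call except a loss in Braf Base medium over Braf full medium with local background divided out (log2 -1.07), and no site lay at the pseudogene Gm11474 next to it.

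Snai2 was the least covered gene. It encodes Slug, the zinc-finger paralog of Snail that neural crest cells use, and spans chr16:14705852-14709395. Its region had 12 overlaps in Braf Base medium, 47 in Braf full medium and 5 in EV, or a coverage of 0.00654, 0.0339 and 0.00369. It had no site, and its highest tile (chr16:14706001-14707000) had 0.0370 in Braf Base medium, 0.137 in Braf full medium and 0.0100 in EV. That tile was called gained in Braf full medium over EV (log2 1.50), as were 2.82% of all tiles. It was called lost in Braf Base medium over Braf full medium (log2 -1.03), as were 3.13% of all tiles. Its lower end window had 0.0269 in Braf Base medium, 0.102 in Braf full medium and 0.00913 in EV, under the minimum in all 3.

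**Figure D3:**
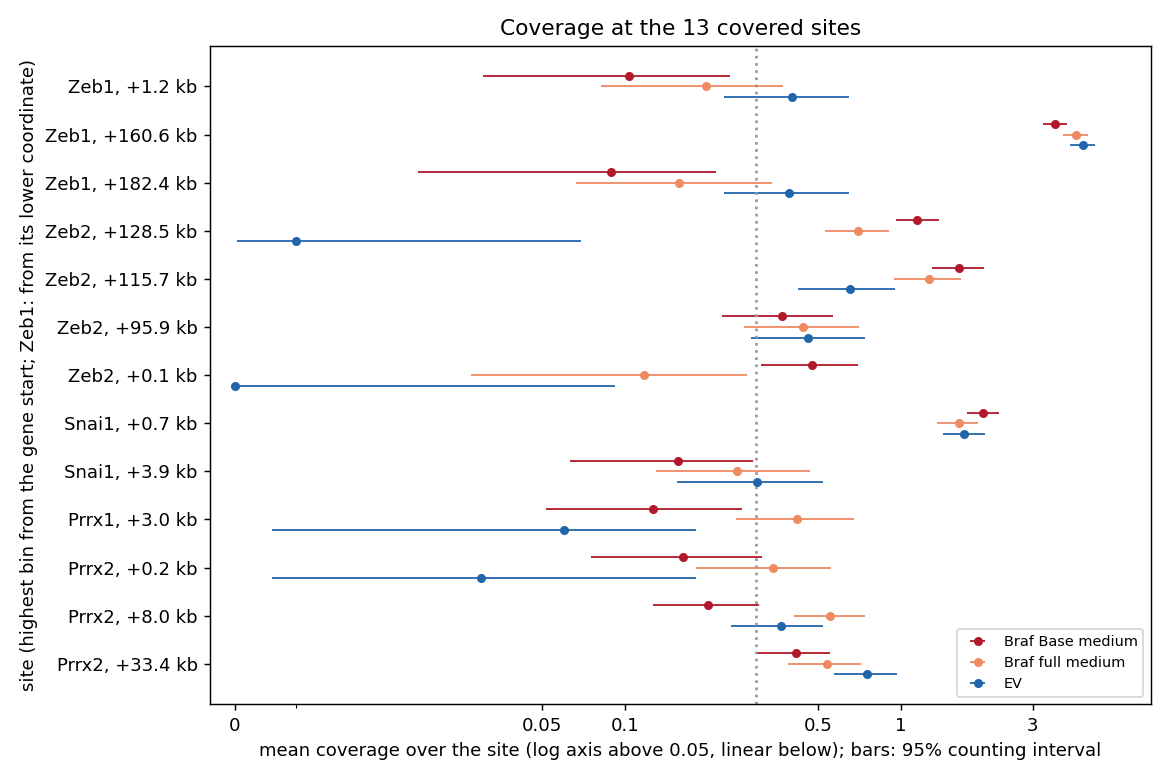
Mean coverage over each of the 13 sites (horizontal axis, logarithmic above 0.05 and linear below it) for Braf Base medium, Braf full medium and EV, with bars for the 95% counting interval; sites are named by gene and the distance in kb of the highest bin from the gene start, or from the lower coordinate for Zeb1, and the dotted line is the site minimum of 0.298. The Zeb2 sites at +128.5 kb and +0.1 kb have EV at 0.0100 and 0, while the Zeb1 site at +160.6 kb and the Snai1 site at +0.7 kb lie within 3.60 to 4.55 and 1.62 to 1.98.

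The paired-related homeobox genes Prrx1 and Prrx2 shape limb and face mesenchyme in the embryo. Each had a site at or near its start that passed the site minimum through Braf full medium alone, so that Braf full medium is highest there is given by the choice of sites. Prrx1 (chr1:163245119-163315145, minus strand) had 1 site, chr1:163312001-163313000, 3.0 kb inside the gene, with 0.126 in Braf Base medium (17 overlaps), 0.421 in Braf full medium (43 overlaps) and 0.0602 in EV (6 overlaps). Braf full medium was 7.00-fold (2.05 to 76.0) over EV and called gained in every setting tried. Braf Base medium was not called against EV and was called lost against Braf full medium, with a log2 ratio of -1.37, a call not made with equal totals (-0.64) or a larger added constant (-0.86). The start window of Prrx1 had 0.0135 in Braf Base medium, 0.0535 in Braf full medium and 0 in EV, under the minimum. The lncRNA genes LOC108167740 and Gm20471 lie inside Prrx1, and no site touched them.

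Prrx2 (chr2:30845064-30881251, plus strand) had its start site at chr2:30845001-30846000. Coverage there was 0.163 in Braf Base medium (22 overlaps), 0.343 in Braf full medium (35 overlaps) and 0.0402 in EV (4 overlaps). Braf full medium was 8.54-fold (1.53 to 60.3) over EV and called gained in every setting tried. Braf Base medium was 4.06-fold (0.686 to 31.5) over EV, an interval that includes 1; the log2 ratio of 1.16 was called gained, and it fell to 0.93 with local background divided out and 0.53 with a larger added constant. In the 3 bins over the Prrx2 promoter printed above, with 28 CpGs, coverage was 0.185 in Braf Base medium, 0.359 in Braf full medium and 0.0502 in EV.

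The wider window around the Prrx2 start had 0.0808 in Braf Base medium (24 overlaps), 0.160 in Braf full medium (36 overlaps) and 0.0183 in EV (4 overlaps). Braf full medium over EV was 8.79-fold (1.66 to 64.2), a log2 ratio of 1.50, and called gained. This window was not called with a larger added constant (0.64), nor, since it fell under the minimum, with equal totals (1.02), with the median window subtracted (1.24) or with a wider window (1.33). Braf Base medium over EV, at 4.43-fold and a log2 ratio of 0.85, was not called.

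Inside Prrx2 the order of the libraries changed from site to site. At chr2:30852001-30854000 coverage was 0.200 in Braf Base medium, 0.554 in Braf full medium and 0.366 in EV. Braf Base medium was called lost against Braf full medium there (log2 -1.24), a call not made with equal totals (-0.47) or a larger added constant (-0.85). At chr2:30878001-30880000 coverage was 0.415, 0.539 and 0.753 in the same order, with EV on top and no call. It was called lost in Braf full medium over EV with equal totals (log2 -1.06) and, just at the threshold, in Braf Base medium over EV with local background divided out. A stretch just under the site minimum, chr2:30864001-30866000, was high in Braf Base medium: its tiles had 0.170 and 0.296 in Braf Base medium, 0.0784 and 0.0294 in Braf full medium and 0 and 0 in EV. Both tiles were called gained in Braf Base medium over EV, with log2 ratios of 1.95 and 2.58.

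Counted over both end windows of each gene, the 6 genes gave few calls. In Braf full medium over EV, Zeb2 and Prrx2 were gained and none was lost, 2 of 6 gained where 8.55% of 20665 protein-coding genes were gained and 1.13% lost. Zeb2 alone of the 6 was gained in Braf Base medium over EV and none was lost, against 6.19% gained and 2.61% lost over all genes. None of the 6 was gained or lost in Braf Base medium over Braf full medium, against 2.02% gained and 5.40% lost over all genes. The split over all genes depended on scaling: with equal totals it turned from 1767 gained and 234 lost to 671 and 807 in Braf full medium over EV, and from 417 and 1116 to 1862 and 156 in Braf Base medium over Braf full medium. The median log2 ratio over the end windows of the 6 genes was 0.82, 0.10 and -0.58 in the 3 comparisons in this order, close to 0.66, 0.00 and -0.61 over all gene ends.

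The same calls were made over the 1-kb tiles of the 6 regions. In Braf full medium over EV, 18 of 498 tiles (3.61%) were gained and 4 lost, against 2.82% gained and 0.354% lost over all tiles. In Braf Base medium over EV, 7 tiles (1.41%) were gained and 4 (0.803%) lost, against 0.249% and 0.984%. The 7 gained tiles lay in Zeb2 (4) and Prrx2 (3), and the 4 lost tiles lay in Zeb1 (2) and Prrx1 (2). Finally, 2 tiles were gained and 15 (3.01%) lost in Braf Base medium over Braf full medium, against 0.110% and 3.13%.

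**Figure D4:**
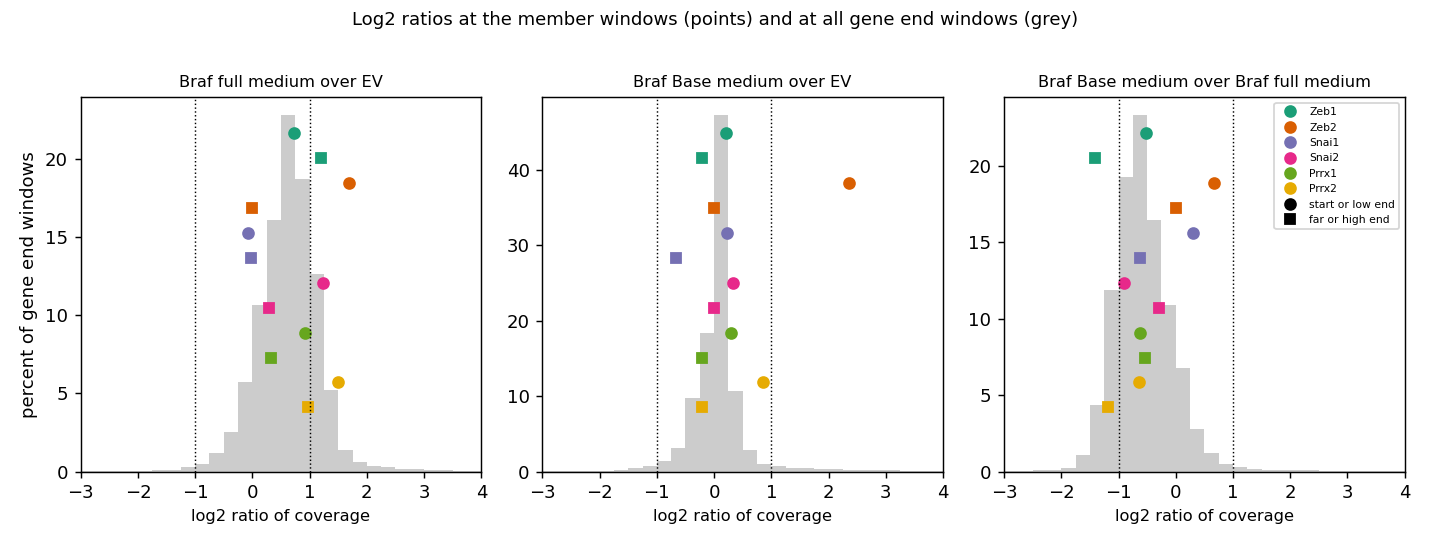
Log2 ratio of coverage (horizontal axis) at the start or low end (circles) and far or high end (squares) of the 6 genes, over the distribution of all gene end windows in percent (grey, vertical axis; the height of a point carries no value), for the 3 comparisons. Dotted lines mark -1 and 1; the grey distribution in Braf full medium over EV is centred at 0.66, and the Zeb2 start stands at 1.70 there and at 2.36 in Braf Base medium over EV.

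Among 16457 protein-coding genes with annotated starts, those whose start windows had values closest to Zeb2 over the 3 libraries were Gm20878 and Dbx1, at Euclidean distances of 0.128 and 0.204 on the log2 scale. Dbx1, a homeobox gene of the developing spinal cord, had 0.286 in Braf Base medium, 0.147 in Braf full medium and 0 in EV. Those closest to Prrx2 were Jakmip3 and Cpt1c, at 0.0919 and 0.0938. With 3 libraries, such a match says only that the 3 values are close.

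The other EMT transcription factors included a few gained genes. Of 13 measured, 3 (23.1%) were gained and 0 lost in Braf Base medium over EV, where 6.19% of all genes were gained, and 2 (15.4%) gained and 1 lost in Braf full medium over EV, where 8.55% were gained; the list's median log2 ratios were 0.02 and 0.72. Twist1, a basic helix-loop-helix factor of embryonic mesoderm, had 3.04 in Braf Base medium, 0.575 in Braf full medium and 0.0639 in EV. Foxc2, a forkhead factor of mesenchyme and lymphatic vessels, had 0.300, 0.414 and 0.0548 in the same order. Gsc, a homeobox factor of the embryonic organizer, was gained at its upper end in Braf Base medium (0.182, against 0 in EV). It was lost at its lower end in Braf full medium (0.116, against 0.292 in EV), a call not made with local background divided out or a larger constant. With the larger constant, the gains of Gsc and Foxc2 in Braf Base medium over EV were not called at these windows either. Counted over both ends, 2 of 13 were then gained in Braf Base medium over EV. Twist1 was also the 1 gene of this list gained in Braf Base medium over Braf full medium, where 2.02% of all genes were gained. With equal totals 4 of 13 were gained.

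Family relatives of the Snail and Prrx genes gave 3 gained of 8 (37.5%) in Braf Base medium over EV, where 6.19% of all genes were gained. In Braf full medium over EV, 2 of 8 (25%) were gained, where 8.55% of all genes were. None was lost in either comparison, and with equal totals the gained counts were 5 and 1. Scrt1, a Snail-like repressor of neurons, had 0.283 in Braf Base medium, 0.316 in Braf full medium and 0 in EV. Alx1, a homeobox gene that patterns the face, had 0.387, 0.0356 and 0.0137 in the same order. Alx1 and Alx4 were gained in Braf Base medium over Braf full medium, where 2.02% of all genes were gained and 5.40% lost. Snai3 was lost there, at 0.0269 in Braf Base medium and 0.147 in Braf full medium. The Snai3 loss was not called with equal totals, background subtracted or a larger constant, and with equal totals 4 of the 8 were gained.

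Epithelial factors that oppose EMT gave no call: 0 of 20 were gained and 0 lost in each of the 3 comparisons. With equal totals 1 of 20 was gained in each comparison of Braf Base medium. The list's median log2 ratios were 0.12 in Braf Base medium over EV and 0.73 in Braf full medium over EV. It includes the miR-200 genes, which form a cluster on chromosome 4 and another on chromosome 6. Their mature RNAs, from RefSeq on GRCm38.p6, are shown with the seed, bases 2 to 8, in capitals, because the seed is the part that pairs with Zeb1 and Zeb2 messages. They fall into a pair of seed groups that differ at 1 base.
mmu-miR-200b-3p: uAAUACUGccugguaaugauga
mmu-miR-429-3p: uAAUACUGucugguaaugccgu
mmu-miR-200c-3p: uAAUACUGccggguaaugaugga
mmu-miR-200a-3p: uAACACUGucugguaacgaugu
mmu-miR-141-3p: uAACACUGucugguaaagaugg

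Windows around the 5 miR-200 RNAs were near background. On chromosome 4, Mir200b had 0.0202 in Braf Base medium, 0.0312 in Braf full medium and 0 in EV, Mir200a had 0.0202, 0.0356 and 0.00456 in the same order, and Mir429 had 0.00674, 0.0223 and 0.00913. On chromosome 6, Mir200c and Mir141 had 0 overlaps in Braf Base medium and in EV, and a coverage of 0.0579 and 0.0757 in Braf full medium. All 5 stayed under the minimum in all 3 libraries, and so no gain at the miR-200 genes was detectable at this depth.

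Genes that EMT factors act on were counted in the same way. Of 24 junction and polarity genes known to be repressed, 2 (8.33%) were gained and 1 lost in Braf Base medium over EV, 2 (8.33%) gained and 0 lost in Braf full medium over EV, and 0 gained and 2 lost in Braf Base medium over Braf full medium. The gained shares over EV are near the 6.19% and 8.55% over all genes. In Braf Base medium over Braf full medium, 2.02% of all genes were gained and 5.40% lost. Tjp1, the tight junction scaffold ZO-1, had 0.953 in Braf Base medium, 0.548 in Braf full medium and 0.256 in EV, and Marveld2, a tight junction protein, had 0.303, 0.241 and 0.0958 in the same order. The Marveld2 gain was not called with a larger constant, and 1 of 24 was then gained in Braf Base medium over EV. Pkp3, a desmosome protein, was lost in Braf Base medium at 0.0909, against 0.251 in EV, a call not made with equal totals or a larger constant. The gains of Cldn3 and Jup in Braf full medium, both at 0.125 and close to the minimum, were not called with equal totals, an equal median, the background subtracted or a larger constant. With equal totals the list had 0 gained and 1 lost in Braf full medium over EV, and 3 gained and 0 lost in Braf Base medium over Braf full medium. Cdh1, the E-cadherin gene, had no call.

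Of 23 mesenchymal genes that rise in EMT, 5 (21.7%) were gained and 1 lost in Braf Base medium over EV. In Braf full medium over EV, 3 were gained and 1 lost. The counts were 4 gained and 1 lost in Braf Base medium over Braf full medium. Over all genes, 6.19% were gained and 2.61% lost in Braf Base medium over EV. The shares were 8.55% and 1.13% in Braf full medium over EV, and 2.02% and 5.40% in Braf Base medium over Braf full medium. The 3 gained in Braf full medium over EV became 1 with equal totals and 0 with a larger constant; Mmp2 and Tagln lost that call under both. With the larger constant, 3 were gained in Braf Base medium over EV. Cdh2, or N-cadherin, had 2.86 in Braf Base medium, 0.419 in Braf full medium and 0.283 in EV. Mmp2, a matrix protease, had 0.438, 0.178 and 0.00913 in the same order, and Cdh11, a mesenchymal cadherin, had 0.684, 0.183 and 0.105. Vim, an intermediate filament gene of mesenchyme, had 0.283, 0.294 and 0.0319. Lox, a collagen crosslinking enzyme, was gained in Braf Base medium at 1.17, against 0.428 in Braf full medium. Col1a1, a collagen chain, went the other way, with 0.00674 in Braf Base medium, 0.0713 in Braf full medium and 0.397 in EV.

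Markers of the cell types a colon culture could hold were read the same way. None of 10 colon epithelium markers and none of 8 immune markers was called in any comparison as the libraries were deposited, and 1 colon epithelium marker was called lost under some alternatives, among them an equal median (Braf Base medium over EV), background subtracted (Braf full medium over EV) and local background divided out (Braf Base medium over Braf full medium). Over all genes, 6.19% were gained and 2.61% lost in Braf Base medium over EV, and 8.55% and 1.13% in Braf full medium over EV. In Braf Base medium over Braf full medium, 2.02% of all genes were gained and 5.40% lost. Of 10 fibroblast and smooth muscle markers, 0 were gained and 1 lost in Braf Base medium over EV. In Braf full medium over EV 1 was gained and 1 lost, and in Braf Base medium over Braf full medium 0 gained and 1 lost. Of 8 endothelial and neural markers, 4 (50%) were gained in Braf Base medium over EV and 3 (37.5%) in Braf full medium over EV. In Braf Base medium over Braf full medium 2 (25%) were gained, and none was lost in any comparison as the libraries were deposited. In Braf full medium over EV the counts of these 8 became 2 gained and 3 lost with equal totals and 3 gained and 2 lost with background subtracted. With a larger constant they were 0 gained and 0 lost. With the larger constant, 2 were gained in Braf Base medium over EV and 1 in Braf Base medium over Braf full medium. Sox10, a neural crest factor and 1 of the 4 gained in Braf Base medium over EV, had 0.573 in Braf Base medium, 0.272 in Braf full medium and 0.0228 in EV. The list mixes endothelial and neural genes, and the values of its other members are not given here. Whether the cell makeup of the cultures has a part in the Zeb2 values was not tested.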

How the data were processed

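MBD-seq was done on 3 libraries, 1 per group; the input, per the labels' protocols, was 100 to 200 ng of DNA in fragments of 200 to 400 bp, read as 50-bp single ends. The labels speak of growth before a microarray, although this assay is sequencing. The submitters' processing notes name Bowtie2 and mm10, while versions and the binning are not given in the sources used here. Values as deposited by the authors are log2 values for 200-bp bins on chromosomes 1 to 19. In each library they equal log2 of a floor of 0.0153 plus whole steps of 0.0370 (Braf Base medium), 0.0490 (Braf full medium) and 0.0502 (EV), within 0.001 of a step; the steps were taken as read overlaps. Overlaps per lone read put the libraries at 5985362, 8648828 and 5041726 reads.

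Mean coverage was taken in windows of 1 kb on both sides of gene ends, in 1-kb tiles and in gene spans with 5 kb on either side. Gene positions came from a RefSeq table of GRCm38.p6. Intervals and bounds, the latter against 3 reads, cover counting error only, and reads without molecular identifiers are not independent molecules. Calling was tested on simulated data. Scaling, background, local dosage, added constant, window, flank and minimum were varied; windows at annotated starts were added after seeing the data. Named genes are the 6 genes and their neighbours within 5 kb, at most 4 called genes per list and comparison by absolute log2 ratio, and the 2 genes nearest to each called member by start window; members of lists named without a call, and Prrx2 tiles under the site minimum, were chosen after their values were seen. 1 called gene of a list is not reported here. The genes and lists were chosen with earlier results of these data known. Python 3.11.15, numpy 2.4.6, pandas 2.3.3 and scipy 1.17.1 were used.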

Additional observations from a re-analysis of the deposited data

How the results depend on the processing

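No paired analysis was possible because each group has 1 library; for the same reason no replicate could be left out. No log2 ratio that was called changed sign under any alternative. In Braf full medium over EV, the 2 of 6 genes gained became 0 with equal totals, with background subtracted, with a 4 times larger added constant, with a window of 2 kb to each side and with a minimum of 5 times the mean, and 4 with no minimum. All genes gained, 1767, became 671 with equal totals, 954 with background subtracted, 591 with the larger constant, 699 with the higher minimum and 7625 with none; genes lost, 234, became 807, 527 and 66 under the first 3 of these and 133 with the 2-kb window. Tiles gained, 18, became 6, 7, 4, 4 and 88 in the order given for genes gained; tiles lost, 4, became 0 with the larger constant and 2 with the higher minimum. In Braf Base medium over EV, the gene gained became 0 with the higher minimum. All genes gained, 1279, became 787 and genes lost, 540, became 127 with the larger constant, and genes lost were 272 with the higher minimum. Tiles gained, 7, became 4 with the higher minimum, and tiles lost, 4, became 0 with the larger constant and 2 with the higher minimum. In Braf Base medium over Braf full medium, genes of the 6 gained, 0, became 2 with equal totals, 1 with background subtracted and 1 with a window of 500 bp; those lost, 0, became 2 with local dosage divided out and 2 with no minimum. All genes gained, 417, became 1862, 695 and 239 with equal totals, background subtracted and the larger constant. Genes lost, 1116, became 156, 341 and 119 under these, 1904 with 500-bp windows, 606 with 2-kb windows, 222 with the higher minimum and 6516 with none. Tiles gained, 2, became 9 with equal totals, 1 with the larger constant and 1 with the higher minimum; tiles lost, 15, became 0 with equal totals, 4 with background subtracted, 0 with the larger constant, 3 with the higher minimum and 81 with none. The counts of Braf full medium thus depended on how its raised background was scaled, and the cause of that background was not tested. Counts over all genes are not given for every alternative, and shares over all tiles are given for none. The changed counts of genes and tiles are therefore not read as a result about the 6 genes. Windows at annotated starts gave the counts of the 6 genes unchanged. Sites with few EV overlaps are limited by depth: the Zeb2 site at 128.5 kb and those of Zeb2, Prrx1 and Prrx2 near the starts.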

Other observations

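Some tiles outside the sites differed between libraries. In Prrx1, chr1:163257001-163258000 had 0 in Braf Base medium, 0.0294 in Braf full medium and 0.151 in EV, and chr1:163305001-163306000 had 0.0222, 0.0686 and 0.181 in the same order. In Zeb1, chr18:5696001-5697000 had 0 overlaps in Braf Base medium, a coverage of 0.167 in Braf full medium and 0 overlaps in EV. Next to the first Zeb2 start, inside the gene, chr2:45116001-45117000 had 0.0963 in Braf Base medium, 0.147 in Braf full medium and 0 in EV. These tiles rest on 15 to 18 overlaps in the highest library and were chosen after their values were seen.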
